A study of Homo sapiens with 8 samples.

Results

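The QKI7-bound transcriptome of HepG2 cells that received the control guide sgNS was described from 2 peak lists, 1 for each pair of an immunoprecipitated (IP) and an input library. Every row of both lists was used, which came to 22600 of the 42083 peaks of the series, from 4 of its 8 samples. HepG2 is a human liver cancer line. Its cells here carried Cas9, had been infected with a lentivirus encoding 3 x Flag-QKI7 (pmiRNA1-3 x Flag-QKI7) and were kept only if GFP-positive, in these samples as in the rest of the series. The sgNS samples were labelled as control, so METTL1, which with WDR4 places m7G on RNA, was not the target of their guide. After UV cross-linking and sonication, RNA was recovered with a Flag antibody, so the peaks concern the overexpressed tagged protein in a selected population. Whether replicates 1 and 2 came from separate cultures is not stated, and the spread between them may be technical. No read numbers are listed, so the depth behind a value is unknown.

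QKI, or Quaking, is an RNA-binding protein of the STAR family with a KH domain. It is known for control of splicing, mRNA stability, transport and translation, and its isoforms share the RNA-binding region and differ in the tail that follows it. The short RNA element most often tied to QKI is ACUAA followed by C or U, usually with a second, shorter element nearby. It is made in many tissues and is best known from myelinating glia, muscle and endothelium.

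Sequence was at hand only for RefSeq start windows (GRCh38.p14; 250 bases before to 50 after each annotated start) and for miRNAs. Peaks covered 92 stretches of such windows in replicate 1 and 89 in replicate 2, which is 0.193% and 0.194% of all peak bases. The letters ACTAAC or ACTAAT, searched on both strands, stood on the strand listed for the peak in 5 of the 92 and 4 of the 89 stretches. On the opposite strand they stood in 0 of the 92 and 0 of the 89. Of all 35116 windows, each of 300 bases and so longer than most stretches (median length 73.5 and 62 bases), 5.50% held the letters on the gene's strand and 5.18% on the other. The sites are shown because they are the places where a peak and the QKI element can be read together; capitals mark the element, DNA letters are given 5′ to 3′ on the strand of the peak, and ABCA5 holds a pair of them.
ABCA5, chr17:69244857-69244886, minus strand: ttattttatataACTAACtataatatgaca
ABCA5, chr17:69244822-69244851, minus strand: tttgctagtagtACTAACaacgttttatag
STRN4, chr19:46719880-46719909, minus strand: tgctttccagacACTAACcaaggcttccag
SPATS2L, chr2:200478155-200478184, plus strand: ttaatcatttttACTAATtctaataatcag
ERV3-1, chr7:64991018-64991047, minus strand: gactaccacacgACTAATggccctaactaa
UNC93A, chr6:167291326-167291355, plus strand: acagtcttaatgACTAACacacctctaaca

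The folds of these peaks, IP over input as the authors listed them, spanned a wide range. In ABCA5, a lipid transporter gene, the fold was 62.5 in replicate 1 and 44.4 in replicate 2. SPATS2L had the best-supported of these peaks, with folds of 23.4 and 22.3 and −log10 p of 3460 and 3180. ERV3-1, an endogenous retroviral envelope gene, had 14.9 and 21. STRN4, a striatin scaffold gene, had 5.94 and 6.27. The site in UNC93A lay in a peak of replicate 1 alone, with a fold of 5.21 and a −log10 p of 2.94. The UNC93A site lies in that gene's own start window, the ABCA5 sites in the window of ABCA10, the ERV3-1 site in that of ZNF117 and the others in windows of uncharacterised loci. Peaks named ERV3-1 and ZNF117 overlap, so that signal is uncertain between the names. A match of letters is a description and shows no contact, and which exon part each site lies in was not analysed here.

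Mature miRNA sequences were also read where a peak on their own strand covered them whole in both replicates; they are shown because they mark what the bound stretch of the host transcript contains. Capitals mark the seed, bases 2 to 8.
hsa-miR-10393-5p, in the B2M peak: aGAAUUCUcuuauccaacaucaaca
hsa-miR-10393-3p, in the B2M peak: uGGUCAGAuuugaacucuucaa
hsa-miR-3658, in the UCK2 peak: uUUAAGAAaacaccauggagau
hsa-miR-1825, in the POFUT1 peak: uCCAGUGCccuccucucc
The B2M peak, in the mRNA of the class I light chain, had folds of 3.03 and 2.86. UCK2, a uridine-cytidine kinase, had 6.63 and 7.02, and POFUT1, a protein O-fucosyltransferase, had 2.06 and 2.11. No seed was shared among these miRNAs. The peaks were called on the host transcripts and are no measure of a mature miRNA.

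Both replicates drew a map of similar size. Replicate 1 held 11562 peaks in 5570 genes and replicate 2 held 11038 peaks in 5359 genes. Of the 5957 genes named by either list, 4972 (83.5%) were named by both, which is 89.3% of the genes of replicate 1 and 92.8% of those of replicate 2. Among 20056 RefSeq protein-coding genes, 4952 had a peak in both lists, which is 24.7% and serves below as the background for every gene list. A peak reports IP over input, so a gene without one is not shown to be unexpressed or unbound.

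A peak was counted as matched where its exon blocks and those of a peak in the other list had at least 1 base in common on 1 strand. In replicate 1, 9113 peaks (78.8%; exact Clopper-Pearson 95% interval 78.1 to 79.6%, counting error only) were matched, and in replicate 2, 9216 (83.5%; 82.8 to 84.2%). The share followed the authors' p. With each list divided into 10 equal bins by p, every peak in the 3 bins of smallest p was matched in both lists. In the sixth bin 90.0% and 91.0% were matched, and in the weakest bin 28.4% and 43.8%. The 2449 and 1822 unmatched peaks had a median of 121 exon bases in both lists, against 331 and 330 for matched peaks. Their median fold was 3.27 and 3.03, against 4.99 and 4.65. Of unmatched peaks, 72.2% in replicate 1 and 77.0% in replicate 2 lay in genes that the other list named at another place. That share was lower than over all peaks. Of these, only 682 of 11562 in replicate 1 and 421 of 11038 in replicate 2 lay in genes not named by the other list. A −log10 p under 5 was listed for 76.6% and 77.4% of the unmatched peaks.

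**Figure D1:**
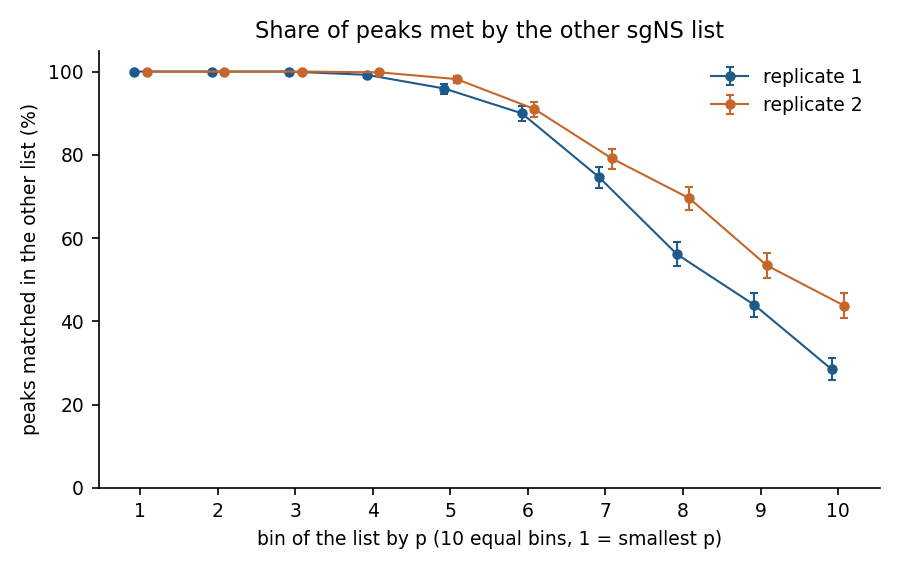
Share of peaks (%) that overlap a peak of the other sgNS list, in 10 equal bins of the list ordered by the authors' p (bin 1 = smallest), with exact 95% intervals for counting error. All peaks of the first 3 bins were matched in both replicates, and the share fell to 28.4% and 43.8% in the last.

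Taking the partner with the most shared bases on both sides gave 8548 matched pairs, 8531 of them under the same gene name. The pairs agreed in outline more than in exact edges: 95.2% had the same number of exon blocks and the median pair shared 78.7% of its united bases, while both edges were equal in 11.3% and 1 edge in 40.1%. The fold of replicate 2 over replicate 1 had a median log2 of -0.08 and an SD of 0.65, and 89.1% of pairs lay within 2-fold. Replicate 1 had the higher fold in 4889 pairs, replicate 2 in 3620, and 39 were equal. The SD was 0.78 where the weaker peak had a −log10 p under 5 and 0.45 where it had at least 100. By size it ran the other way: 0.25 for mean folds under 2, 0.67 from 4 to 10, 0.91 from 10 to 50 and 0.80 above. The same folds recurred in different peaks: a fold of 4.63 stood in 149 peaks of replicate 1 and 18.5 in 140, and in replicate 2 a fold of 4.23 stood in 118 and 16.9 in 114. The 10 commonest folds of each list made up 9.85% and 8.95% of its peaks. Across the pairs the Spearman correlation was 0.893 for fold and 0.918 for p, a description over peaks that share libraries and gene positions.

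**Figure D2:**
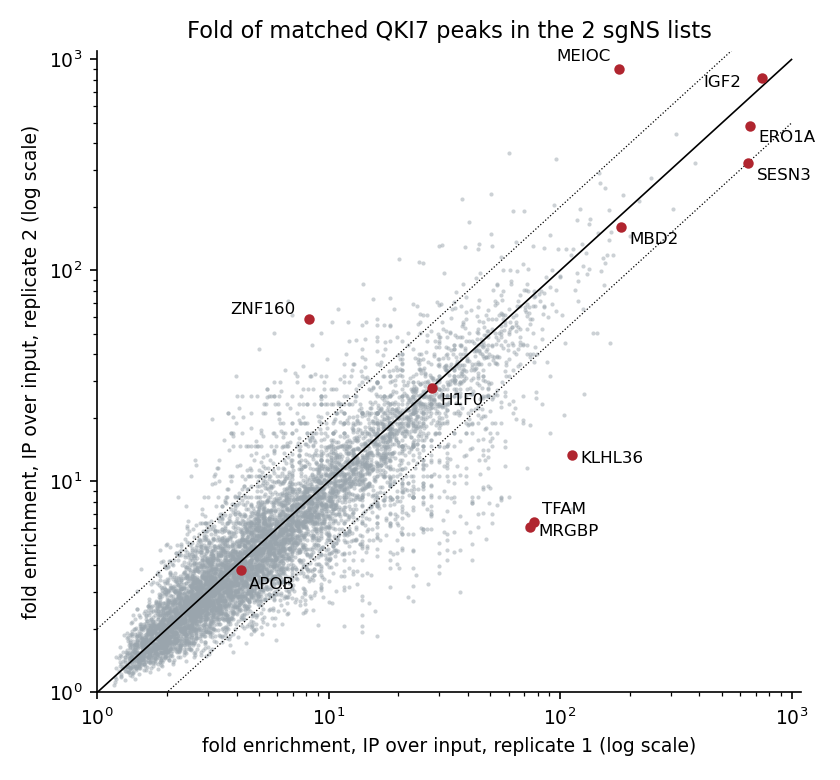
Fold enrichment (IP over input, log scales) of the 8548 matched pairs in replicates 1 and 2. The solid line marks equal folds and the dotted lines a 2-fold difference, within which 89.1% of pairs lie. Named genes in red include IGF2 at 744 and 815. Others in red, such as TFAM at 77.2 and 6.4, were among the least repeatable of the better-ranked pairs by p. Pairs outside that part could differ more, such as KIF14 at 113 and 7.39.

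The bound stretches were mostly short and lay within 1 exon. The median peak covered 270 exon bases in both lists, with quartiles at 151 and 509, and 907 (7.85%) and 887 (8.04%) peaks covered at least 1000. Peaks of 1 exon block made up 90.9% and 90.5%. The median fold was 4.58 and 4.33, and folds of at least 10 were listed for 2931 (25.4%) and 2557 (23.2%) peaks. A few peaks ran across many exons: 8 matched pairs had at least 10 blocks in both lists, and this group was singled out after its values were seen.

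Among those 8, DVL3 and DVL1 encode Dishevelled proteins that relay Wnt signals. The DVL3 peak had 10 blocks and 4283 bases in both lists, at folds of 383 and 323. DVL1 had 15 blocks and 2924 bases at 46.5 and 45.9. SSB, the La protein that binds the 3′ ends of RNA polymerase III transcripts, had 11 blocks at only 6.79 and 6.91. TTYH3, a tweety family membrane protein, had 14 blocks at 25.2 and 26. AGRN, which encodes agrin of the basement membrane, had 30 blocks in replicate 1 and 37 in replicate 2, at 10.2 and 14.9. How much of the spliced transcript these peaks cover was not measured. The other 3 were HIPK2, DMPK and COL27A1, whose block numbers or bases differed between replicates.

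Most peaks lay toward the 3′ end of their gene. Peak centres fell in the last 10% of the RefSeq gene span for 75.8% of the peaks of each list, and in the first 10% for 0.947% and 0.855%. The span includes introns, while peaks are listed over exon blocks. How large a share of exon bases lies in the last 10% was not measured, so no expected share stands beside these values. Peaks of 1 block were further toward the end (78.8% and 79.0% in the last 10%) than peaks of 3 or more blocks (39.8% and 40.5%). A peak of 3 or more blocks spans introns and cannot lie in the last exon alone. The part of this in the difference was not tested. The distance from the 3′ edge of a peak to the annotated gene end had a median of 1373 and 1376 bases. High folds crowded the end itself: among peaks with a fold of at least 50, 41.1% and 40.8% ended within 50 bases of it, against 2.18% and 2.37% of peaks with a fold under 2. Their centres fell in the last 10% for 79.1% and 78.5%, near the share of all peaks. Peaks of high fold were also wider. The median was 888 and 779.5 exon bases for folds from 50 to 100, against 151 in both lists for folds from 1.5 to 2. The part of width in this was not tested. Gene ends are those of the RefSeq gene, so a transcript that ends earlier shows a distance above 0, and UTR, coding and intron parts were not assigned.

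**Figure D3:**
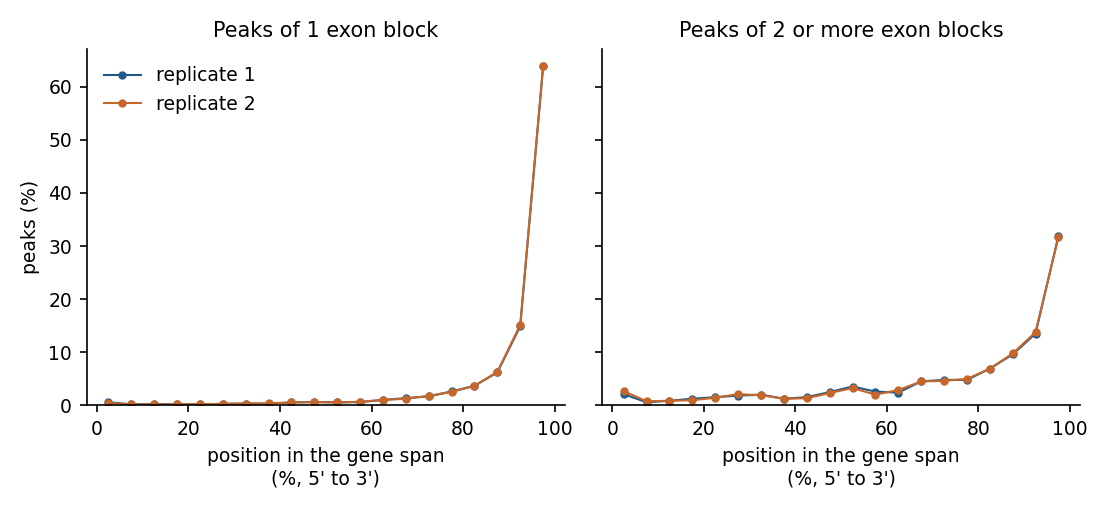
Share of peaks (%) by the position of the peak centre in the RefSeq gene span (5′ to 3′, steps of 5%), for peaks of 1 exon block and of 2 or more, in both replicates. The curves of both replicates nearly coincide; peaks of 1 block pile up in the last step, and peaks of 2 or more blocks are spread more widely over the gene.

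Against that pattern, 53 matched pairs had both centres in the first 10% of the gene; the 6 best by p, chosen after values were seen, include regulators with very long genes. CAMTA1, a calmodulin-binding transcription activator, had 5 blocks at folds of 20 and 23.2, whose 3′ edge lay 520155 bases before the gene end in both lists. DLG1, a scaffold of cell junctions, had 5 blocks at 6.88 and 5.59. MAML2, a coactivator of Notch, had 8.91 and 13.4. CPEB4, which binds cytoplasmic polyadenylation elements, had 5.01 and 5.6, TRIM44 had 3.61 and 4.26, and ZNF117 had 14.3 and 18.1. The ZNF117 peak overlapped a peak named for the endogenous retroviral envelope gene described above. Its place in the first 10% therefore holds only under the name ZNF117, and the signal is uncertain between the names.

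The best supported peak by far lay in IGF2, the imprinted fetal growth factor that many liver tumours express. It was ranked first by p in both lists, with folds of 744 and 815, −log10 p of 737000 and 828000, and the same 4 blocks and 4546 bases in each (chr11:2129112-2147687, minus strand). Next by mean rank was H1F0, the replacement linker histone, whose fold was far smaller, 28 and 27.6, at −log10 p of 26500 and 27400. The pair shows that rank by p and rank by fold differ: H1F0 stood 767th and 669th by fold.

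Other leading peaks by p fell into a few kinds of gene. Of nuclear regulators, MBD2, which binds methylated CpG, had folds of 183 and 160, MBNL2, a splicing regulator of the muscleblind family, 133 and 102, and PEG3, an imprinted zinc finger gene, 85 and 78.1. Of secretory and membrane genes, ERO1A, the oxidase that drives disulfide formation in the endoplasmic reticulum, had 663 and 485, and SLC38A2, a neutral amino acid transporter, 46.9 and 38.6. SNX3 and PICALM, which act in endosome sorting and clathrin coats, had 146 and 151, and 130 and 121. LAPTM4B, a lysosomal membrane protein, had 54.6 and 50.6. ALDH1A1, an enzyme that oxidises retinaldehyde, had 54 and 46.7. SEPT2, a septin, had 55.4 and 50.1, and RELN, a secreted matrix protein, had 19.4 and 19.1. In each of these genes the replicates differed by less than 1.5-fold.

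The remaining leaders by fold ranked lower by p. HIPK2, a stress-activated kinase, had 318 and 442. SESN3, a sestrin that restrains mTORC1, had 650 and 323, and ACVR2A, an activin receptor, 308 and 195. RIPPLY3, a transcriptional repressor, had 246 and 274, and ZNF43 had 187 and 228. MEIOC, a meiosis gene, had 179 in replicate 1 and 902, the highest fold of replicate 2. SULT1C4, a sulfotransferase, had 147 and 290, and F2RL2, a thrombin receptor family member, had 157 and 247 at a −log10 p of only 45.3 and 55.9. Among these, MEIOC differed the most between replicates and RIPPLY3 the least.

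The widest matched peaks ran over several kilobases. PRKCA, the alpha isoform of protein kinase C, had 6555 and 5867 bases in 1 block at folds of 83.2 and 47.3. SKI, which represses SMAD-driven transcription, had 5707 bases in 7 blocks in both lists, at 133 and 166. The AGRN peak described above had 5628 and 6915 bases, the latter the most of any peak in replicate 2. NACC2, a transcriptional repressor, had 5489 and 5879 bases at 48 and 61.2. LPP, a focal adhesion protein, had 5098 bases in both at 73.2 and 67. MSI2, the RNA-binding protein Musashi 2, had 5086 and 5295 bases at 85.3 and 128.

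Small folds could also be strongly supported. Singled out after values were seen, 13 matched pairs, QKI among them, had −log10 p over 1000 in both lists at folds under 12. APOB, the main protein of very low density lipoprotein, had a fold of only 4.18 and 3.8, yet −log10 p of 5640 and 4720, over the same 331 bases. LYZ, which encodes lysozyme, had 4.73 and 5.21, PEG10, an imprinted gene of retrotransposon origin, 3.48 and 3.63, and SLC7A5, the large neutral amino acid transporter, 11.1 and 10. ERRFI1, which restrains EGFR, had 8.23 and 8.04. Replicates of these folds were close together.

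QKI itself had 4 matched peaks. The best by p had 8 blocks and 1440 bases in both lists (chr6:163415152-163571106, plus strand), with folds of 10.1 and 9.94. Further toward the gene end lay peaks with folds of 1.72 and 1.77, then 78 and 68 over 2068 and 2098 bases, then 4.4 and 3.3. All cells carried a Flag-QKI7 transgene, and RNA from it and from the gene itself cannot be told apart where they share sequence. METTL1 and WDR4 had no peak in either list.

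Many transcripts carried several bound places. Of the 4744 genes with a matched pair, 2657 (56.0%) had 1, 1153 had 2 and 191 had 5 or more, with a mean of 1.80. Those 191 genes held 1103 of the pairs. The highest number, 11, was in HOOK3, which links cargo to dynein; its folds ran from 2.06 to 59.8 in replicate 1 and from 2.41 to 44.4 in replicate 2. SLC9A7, a cation-proton exchanger of the Golgi, had 10 and EPPK1, a plakin that binds keratin filaments, had 9. A further 15 genes had 8 each, of which the first 7 by alphabet were taken: BMPR2, a BMP receptor (3.03 to 45.4 and 3.05 to 47.5), HIPK2 (1.56 to 318 and 1.54 to 442), AGFG1, CYP20A1, DDHD1, FER and HELZ. The other 8 with as many were LPP, NFAT5, RAB22A, SC5D, SLC7A11, SMAD2, TRIOBP and ZMAT3. The folds of AGFG1, which shares domains with nucleoporins and ARF regulators, stayed within 2.33 to 7.72 in both lists. In HIPK2, by contrast, 1 place stood far above the others in both replicates.

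**Figure D4:**
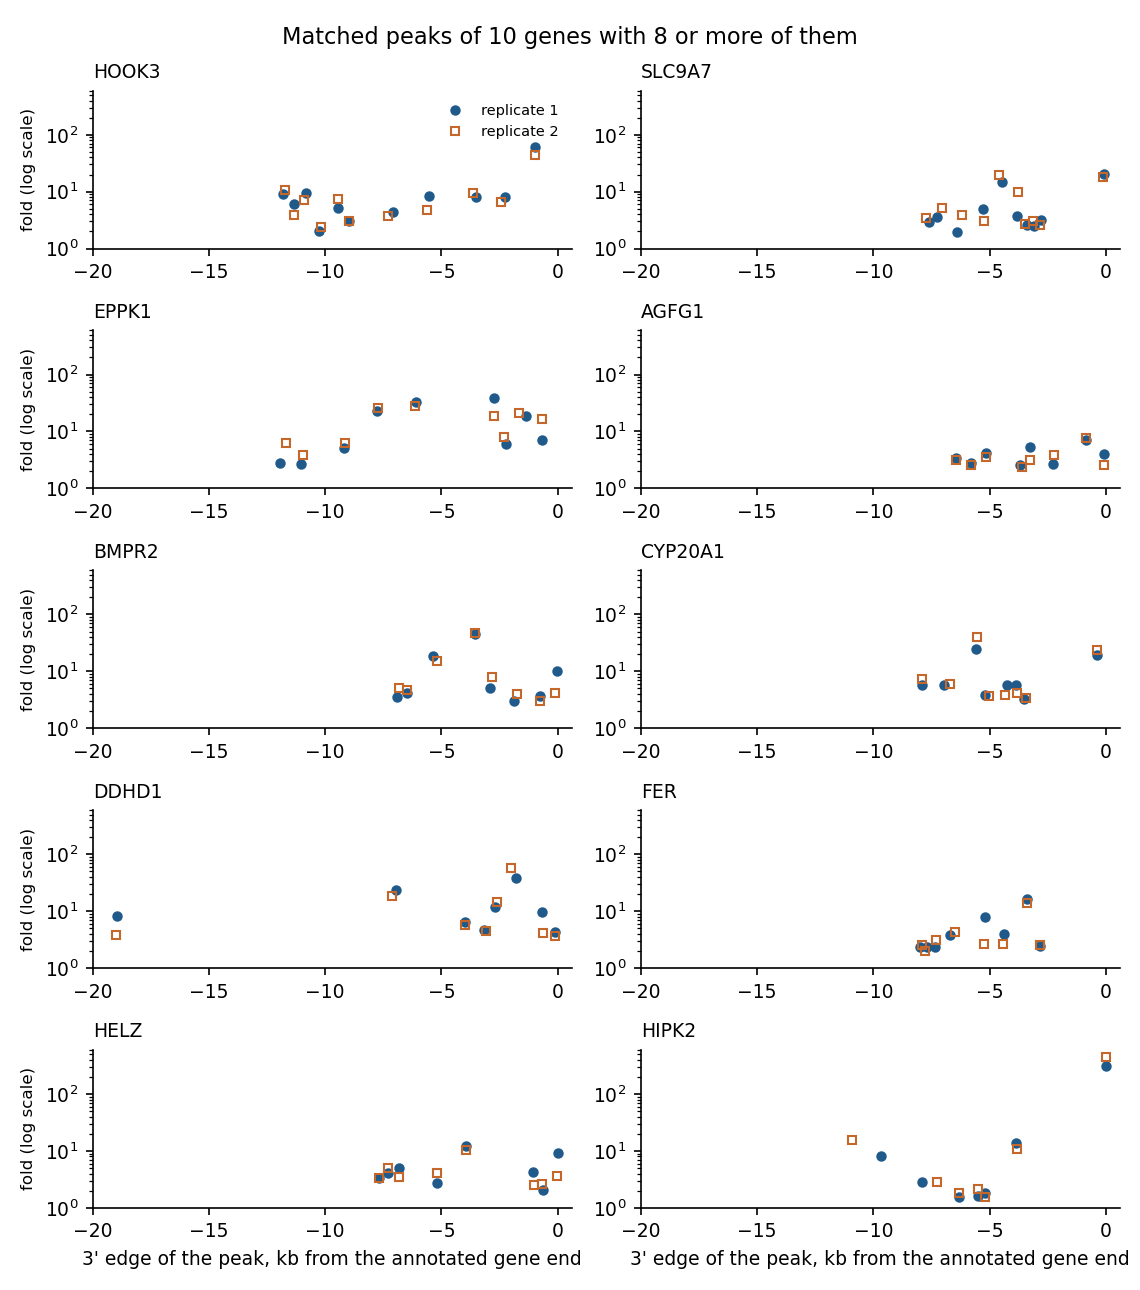
Fold (log scale) of each matched peak of 10 genes, the 3 with the most and 7 of the 15 tied at 8, against the distance of its 3′ edge from the annotated gene end (kb), in replicate 1 (filled circles) and replicate 2 (open squares). The axis stops at 20 kb, which leaves out 1 HIPK2 peak further 5′; in HOOK3 the highest fold, 59.8 and 44.4, belongs to the place nearest the end, while in BMPR2 the highest, 45.4 and 47.5, stands in the middle of the row.

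Gene lists of 27 processes were read against the background of 24.7%. Each list is described by how many of its protein-coding members had a peak in both lists, with exact 95% intervals in the plot, beside the median of the strongest fold per gene, which was 7.94 and 7.39 over all genes in both lists. Above the background lay 22 lists, 19 of them with the whole interval above it, and 0 lists had their interval below it. The lists and members were chosen with earlier results of these data known, so this tally is a description only. The background also takes in gene families with hardly any peak, such as LOC genes (0 of 665) and OR genes (3 of 392), which lowers it. The folds given below for members are the strongest of the gene in each replicate, and may belong to different peaks of it. They are given without p, and a high fold can rest on weak support. In POLQ, for example, folds of 4.63 and 25.4 had −log10 p of 4.54 and 4.97. Gene span differed between lists. Over all protein-coding genes the share rose over 10 bins of rising span from 4.34% in the first to 42.4% in the ninth and was 34.2% in the last, and the median span was 24092 bases over all protein-coding genes but 66882 in importins and exportins and 11974 in complex I. The order was not the same throughout: liver-enriched transcription factors, with 57.1% of members covered, had a median span of 21697, and the markers of other cell types, with 5.56%, had 37213. The part of span, or of expression, in these shares was not tested.

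**Figure D5:**
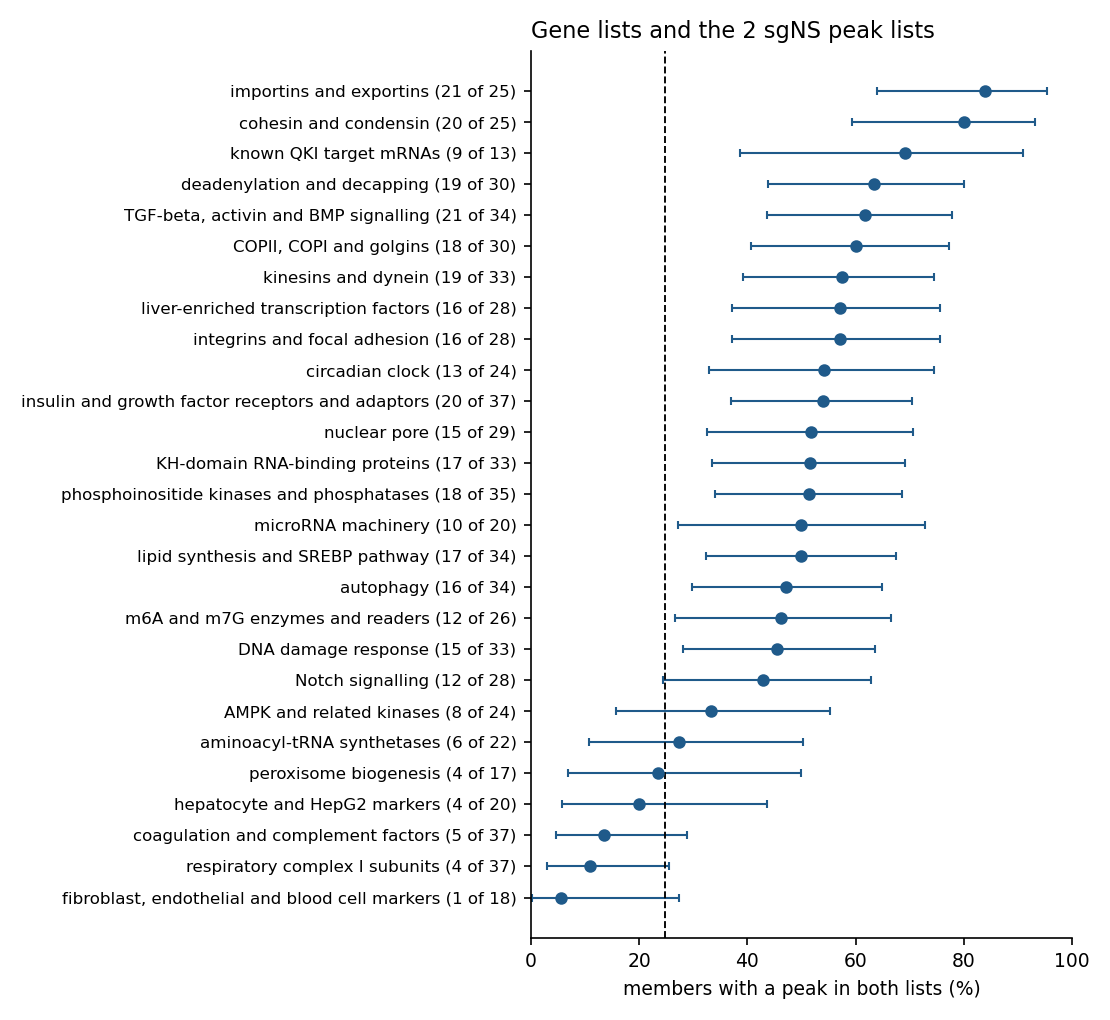
Share (%) of the protein-coding members of each gene list with a peak in both sgNS lists, with exact 95% intervals; the numbers in parentheses give members with a peak in both of all members. The dashed line is the 24.7% of all protein-coding genes; importins and exportins stand at the top with 84.0% and the markers of other cell types at the bottom with 5.56%.

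Transcripts already known to bind QKI are given first. Of 13 such genes, 9 had a peak in both lists and the others, EGR2, GLI1, HNRNPA1 and MYOCD, had none in either. The median strongest fold of the 9 was 26.1 and 15.8. FOXO1, a transcription factor of insulin signalling, had 38.1 and 40.3, and CTNNB1, beta-catenin, 29.9 and 30.5. The cell cycle inhibitor CDKN1B had 26.1 and 22.8 and the deacetylase SIRT2 had 23.3 and 27.1. MAP1B, a microtubule protein, had 19.6 and 15.8, and the myelin gene MBP had 23.1 and 13.4. ADD3, an adducin of the membrane skeleton, had 46.3 and 13.3, NUMB, an endocytic inhibitor of Notch, had 34.7 and 9.83, and MACF1, a cytoskeletal crosslinker, only 1.81 and 2.39. The strongest folds of ADD3 and NUMB thus differed the most between replicates, though they may belong to different peaks of the gene.

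Transport between nucleus and cytoplasm had the highest share of the 27 lists. Of 25 importins and exportins, 21 had a peak in both lists (84.0%), though at modest folds, with a median of 4.63 and 4.6. The importins KPNA4 and IPO7 led with 26.3 and 25.1, and 27.2 and 23; the exportins XPO1 and XPO4 had 17.8 and 21.8, and 18.7 and 17.7. Of 29 nuclear pore genes 15 were covered, among them NUP50 (14 and 10.2), NUP153 (11.8 and 8.01), NUP88 (8.98 and 9.97) and SEH1L (11.7 and 10.9). Cohesin and condensin, the rings that hold and fold chromosomes, followed with 20 of 25 (80.0%). SMC1A had 9.75 and 21.1, SMC2 15.3 and 11.1, NCAPD3 11.2 and 16.4, and RAD21 10.9 and 13. The DNA damage response had 15 of 33, led by XRCC5, a Ku subunit, at 24.3 and 20.4, LIG4 at 16.7 and 13.1 and PARP1 at 14.4 and 15, while POLQ had 4.63 and 25.4.

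Genes that act on RNA included several lists. Deadenylation and decapping had 19 of 30 (63.3%), with DCP1A, a decapping activator, at 22.1 and 26.4, CNOT6, a CCR4-NOT deadenylase, at 25.5 and 21.3, LSM14B at 22.1 and 19.7 and BTG3 at 11.4 and 9.5. Of the microRNA machinery 10 of 20 were covered. TNRC6C, a GW182 protein that recruits deadenylases, had 65.4 and 98.9 and 6 matched places. DICER1, which cuts precursor miRNAs, had 28.5 and 39.5, LIN28B, which blocks let-7 processing, had 22.3 and 16.7, and TNRC6B had 13.9 and 9.51 and 7 matched places. KH-domain proteins, the family of QKI, had 17 of 33, with MEX3D at 62.5 and 192, IGF2BP2, which binds IGF2 mRNA, at 37.7 and 35.8 and ANKRD17 at 28.9 and 46.5, beside QKI.

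Enzymes and readers of m6A and m7G had 12 of 26 members with a peak in both lists. FAM103A1, now named RAMAC and the activator of the cap methyltransferase, had 36 and 48.6. ZC3H13, a scaffold of the m6A writer, had 41.7 and 25.4, FTO, an m6A eraser, had 33.8 and 25 and YTHDC1, a nuclear m6A reader, had 23.1 and 19. Aminoacyl-tRNA synthetases, with 6 of 22 (27.3%), lay near the background, with AIMP1 at 43.6 and 50.9, NARS at 44.6 and 42.1, AARS at 15.4 and 11.4 and DARS at 4.38 and 14.8.

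Signalling lists are described by the role of their members. Of 34 TGF-beta, activin and BMP genes, 21 had a peak in both lists (61.8%): the receptors ACVR2A (308 and 195) and BMPR2 (45.4 and 47.5), the effector SMAD9 (43.5 and 41.3) and the corepressor SKI (133 and 166) had the highest folds. Of 37 insulin and growth factor genes 20 were covered, with the ligand IGF2 far ahead of the adaptors SOS2 (41.4 and 30.3), GRB2 (34.1 and 30.2) and IRS2 (17 and 48.6). Phosphoinositide enzymes had 18 of 35, led by PIK3CA, the catalytic PI3-kinase subunit, at 71.6 and 69.3, then MTM1, PIK3C2A and SACM1L at 32.4 and 12.9, 11.2 and 12, and 5.97 and 11.1.

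Notch signalling had 12 of 28, with the ubiquitin ligase ITCH at 26.9 and 37, the coactivator MAML2 at 17.5 and 45.6, the protease ADAM17 at 21.8 and 25.4 and the DNA-binding RBPJ at 21.3 and 21.2. AMPK and related kinases had 8 of 24. Of these STRADB, a partner of LKB1, had 45.5 and 25.2, the catalytic subunits PRKAA2 and PRKAA1 had 14.2 and 12.4, and 13.9 and 10.6, and SIK3 had 10.2 and 12.7. The circadian clock had 13 of 24, with a median strongest fold of 16.9 and 16.8. The repressors BHLHE41 and CRY1 had 48.6 and 59.2, and 40.1 and 18.5, the kinase CSNK1E had 52.7 and 44.7 and the receptor NR1D2 26.3 and 18.3.

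Genes of the cytoskeleton and of membrane traffic came next. Kinesins and dynein had 19 of 33, with KIF21A at 116 and 81.2, KIF1B at 65.5 and 54.1, KIF3A at 39.3 and 16.9 and KIF5C at 30.1 and 19. Integrins and focal adhesions had 16 of 28, where LPP had 8 matched places and TNS1, VCL and TLN1, which tie integrins to actin, had 20.3 and 34, 18.5 and 25.5, and 17.6 and 12.2. COPII, COPI and golgins had 18 of 30: the COPII coat genes SEC24A and SEC23B had 36.9 and 70.8, and 25.5 and 25.1, and the golgins GOLGA1 and GOLGA5 had 20 and 39.9, and 12.6 and 23.2. Autophagy had 16 of 34, with the conjugation enzymes ATG3 and ATG10 at 44.8 and 12.7, and 16.2 and 35.9, UVRAG at 11.6 and 21.1 and the receptor OPTN at 14.3 and 15.1. Peroxisome biogenesis lay near the background, with 4 of 17 (23.5%). Folds there were high, among them PEX13 at 38.7 and 41.9, PEX10 at 32.2 and 35.6 and PEX2 at 28.8 and 17.

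Liver genes are described by kind. Liver-enriched transcription factors had 16 of 28 members with a peak in both lists (57.1%), with GATA6 at 32.5 and 21.7, GATA4 at 23.8 and 23.8, the fatty acid sensor PPARA at 17.8 and 16.7 and TBX3 at 16.8 and 14.3. Lipid synthesis had 17 of 34, led by HMGCS1 of the cholesterol pathway at 131 and 96.3 and the fatty acid desaturase SCD at 48 and 39.1, then ACLY at 17.4 and 17.7 and MBTPS2 at 6.85 and 14.8. Coagulation and complement factors, which the liver secretes, had 5 of 37 (13.5%, interval 4.54 to 28.8%, which holds the background), where MBL2 had 42.9 and 39.5, FGB 21.5 and 20, FGA 5.39 and 8.2 and PROS1 2.03 and 2.33. Subunits of respiratory complex I had 4 of 37 (10.8%, interval 3.02 to 25.4%): NDUFS1 had 6.73 and 9.45, NDUFA5 10 and 2.68, NDUFC2 2.51 and 3.22 and NDUFB5 1.99 and 1.84.

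Marker genes gave a limited check of the cell type, since peaks are relative to input. Of 20 hepatocyte and HepG2 markers, 4 (20.0%, interval 5.73 to 43.7%) had a peak in both lists: FGB, SERPINA1 (18.7 and 22), HNF4A (4.4 and 3.83) and APOB. ALB, for albumin, had a peak in 1 list only and 15 markers had none. Of 18 markers of fibroblasts, endothelium and blood cells, LYZ alone had a peak in both lists (5.56%, interval 0.141 to 27.3%). HBB and PDGFRB had one in a single list, and 15 had none. Both intervals overlap and hold the background of 24.7%, so these counts cannot tell the cell types apart.

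Some places were called in both lists but with unlike folds. Among pairs in the better part of both lists by p, the largest difference was in MRGBP, a subunit of the NuA4 acetyltransferase, at 74.1 in replicate 1 and 6.07 in replicate 2. TFAM, the mitochondrial transcription factor, had 77.2 and 6.4, and there the peak covered 2544 bases in replicate 1 but 1317 in replicate 2. RAB8B, a Rab of vesicle traffic, had 47.8 and 5.33, with 1616 and 569 bases. KLHL36, TCF20, SLC6A6 and BCL2L11 were also lower in replicate 2, at 113 and 13.4, 30.1 and 3.67, 26.8 and 3.28, and 50.9 and 6.34. ZNF160 alone of these 8 was higher there, at 8.23 and 59.2. In RAB8B and SLC6A6 the replicate with the higher fold also covered over 2-fold more bases, and in MRGBP and ZNF160 it covered over 2-fold fewer.

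Genes named by 1 list alone were mostly weak. Replicate 1 had 598 of them and replicate 2 had 387, with a median best −log10 p of 3.83 and 3.66, against 33.6 and 31.5 for genes in both. Of the 3 strongest in replicate 1, 2 were globins: HBB, adult beta-globin, with a fold of 30.1 and −log10 p of 24.4, and HBE1, embryonic epsilon-globin, with 28.9 and 16.3. RNF115, whose −log10 p of 16.4 stood between them, had a fold of 2.84, and BTN3A2 and ATG5 followed at 4.45 and 2.48. In replicate 2 the strongest were ST5 at 4.82, ANKRD1, a cardiac ankyrin repeat protein, at 4.39 and PPP1R37 at 3.95, with −log10 p of 14.2 to 14.4.

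At the edge of the lists the values were small in support but not always in fold. The largest listed FDR was 4.79% in replicate 1 and 4.90% in replicate 2. In replicate 1 the last peaks lay in VASH2 and TGFB2, each at a fold of 13.9 and a −log10 p of 2.41. In replicate 2 they lay in MAP3K6, SEMA6C and FBXO36, each at 5.63 and 2.17. All of them covered 60 to 90 bases. Peaks just outside the threshold are not listed. Matched pairs of least support were PNPT1 (2.81 and 2.61), GJA3 (13.9 and 14.8) and DHFRL1 (2.85 and 2.43).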

How the data were processed

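Per the submitters' processing notes, STAR and GRCh38 were used; how peaks were called, and past which threshold, is not given in the sources used here. Each IP and input pair has 1 list, in which the authors deposited exon blocks, a fold (a ratio of IP over input), a p-value, and log10 p and FDR, handled as a score because p was listed as 0 for 621 and 565 peaks. No scaling between lists is stated. Gene names were matched to RefSeq GRCh38.p14 (5680 current, 262 through 1 older symbol, 15 unmatched). Overlap, rank and position were computed in Python 3.11.15 with pandas 2.3.3, numpy 2.4.6 and scipy 1.17.1, and plotted with matplotlib 3.10.9; the overlap count was tested on simulated data. Both lists belong to 1 condition, so no test was made. No genome sequence was used, so the planned motif search was limited to RefSeq windows.

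Named genes are the 15 best by mean rank of p and 12 by fold, the 10 with the most matched peaks (ties by alphabet), the 6 widest, the 8 largest replicate differences among the better-ranked peaks by p (the upper 50% of both lists), the 8 best genes of 1 list alone, up to 4 per gene list, all known targets, QKI, METTL1 and WDR4, and peaks nearest the threshold. Some items that this rule names are not reported here. The members and lists were chosen with earlier results of these data known. Alternatives were a 50% reciprocal overlap, an FDR of 0.1%, a fold of at least 4, matched peaks only and each list alone.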

Additional observations from a re-analysis of the deposited data

How the results depend on the processing

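The share of peaks matched over both lists was 81.2%; it was 66.2% with 50% reciprocal overlap, 84.8% at an FDR of 0.1% and 77.3% at a fold of at least 4. The share of peaks with 1 exon block was 90.7%, and 90.1% among matched peaks and 89.7% at an FDR of 0.1%. The share of centres in the last 10% of the gene span was 75.8%, and 78.9% for peaks of 1 block, 76.6% for matched peaks and 76.2% at an FDR of 0.1%. The cause of these shifts was not tested. The other 23 settings of the main values and the 54 settings of single gene lists stayed within the limits used. Those limits were not the same for every measure and were wide for counts. Genes in both lists fell within them from 4972 to 4544 at an FDR of 0.1% and to 3425 at a fold of at least 4. The gene count thus depended on the fold cut. Gene lists above the background numbered 22 or 23. No paired analysis was possible because both lists belong to 1 condition. With 2 lists and no read numbers, the spread rests on 2 library pairs. Peaks under more than 1 gene name with identical strand, start and exon blocks (102 and 73) are uncertain between those genes. Peaks that overlap only in part, such as those named ERV3-1 and ZNF117, or that lie on opposite strands, were not counted there. The number of uncertain names may therefore be larger.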

Other observations

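Families that share a symbol stem, taken over the 74 stems with at least 25 protein-coding genes, differed in how many members had a peak in both lists. Of UBE genes, which include the ubiquitin-conjugating enzymes but also others such as UBE4B, 23 of 42 (54.8%) did. Of RAB genes, which include small GTPases of vesicle traffic but also others such as RAB3GAP1, 37 of 74 (50%) did. The MED subunits of Mediator had 15 of 30, CEP centrosome genes 19 of 39, ZBTB transcription factors 20 of 42 and RBM RNA-binding genes 18 of 39. The large ZNF and SLC families, zinc fingers and solute carriers, lay near the background of 24.7% with 142 of 517 (27.5%) and 93 of 386 (24.1%). The RPL and RPS stems, which hold ribosomal protein genes, were at the low end, with 6 of 52 and 4 of 45. The RPS stem also takes in kinase genes such as RPS6KC1, so its count is not one of ribosomal proteins alone. CYP genes were low too, with 6 of 56, and OR olfactory receptors had 3 of 392. A stem groups genes by name alone, and expression in HepG2 was not measured here.

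By chromosome the share of protein-coding genes with a peak in both lists was highest on 13 (35.5%), 5 (35.2%) and 18 (34.8%) and lowest on 19 (12.5%), 22 (17.5%) and 21 (17.6%). The median gene span was 45739 bases on 13 and 14335 on 19. The part of span in these shares was not tested.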
